A study of Homo sapiens with 2 samples.

Results

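Whole-genome bisulfite sequencing of 2 human acute myeloid leukemia (AML) cell lines was searched for short, CpG-poor sites far from promoters that were nearly unmethylated in AML5 and methylated in OCI-AML3. OCI-AML3 is labelled DNMT3A mutant and AML5, which the labels call OCI-AML5, is labelled DNMT3A wild type. Both are established leukemia lines grown in DMEM with fetal bovine serum, and neither was treated. Each line was represented by 1 library, so no value below has a replicate check, and differences between the lines cannot be told apart from differences in DNMT3A status.

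The autosomes were cut into bins of 500 bp, and 1411316 of these held 3 to 9 CpG dinucleotides read 10 or more times in both lines and lay more than 5 kb from every annotated transcription start site (TSS). The level of a bin was the mean, over its CpG dinucleotides, of methylated calls divided by all calls. The 1353 bins described here had a level below 20% in AML5 and above 70% in OCI-AML3, and made up 0.0959% of the bins. These levels chose the bins, so they are given as a description and were not tested. The opposite pattern, below 20% in OCI-AML3 and above 70% in AML5, was found in 14023 bins, or 0.994%, which is 10.4 opposite bins for each member. A further 20267 bins were below 20% in both lines.

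DNA methylation in mammalian cells is placed almost entirely on the cytosine of CpG dinucleotides by DNMT3A and DNMT3B and is copied at cell division by DNMT1. Outside CpG islands most of the genome is methylated, with well known exceptions. Active enhancers and other sites bound by transcription factors appear as short, CpG-poor dips in otherwise methylated DNA. Partially methylated domains are long, gene-poor and late-replicating stretches in which cultured and cancer cells hold intermediate methylation that varies from one CpG to the next.

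Sequences of 8 members show what such sites look like on the GRCh37 reference, plus strand, 5′ to 3′, 300 bases each. Capitals mark every CpG and, where present, the letters TGANTCA, which read the same on both strands. They are a loose form of the binding sequence of the AP-1 (FOS and JUN) transcription factors, whose usual site has C or G in the middle. The first 4 have some of the largest differences among members with at least 5 passing CpG dinucleotides, and the next pair holds the AP-1 letters. The last pair opens the clusters of members inside CLSTN2 and EBF1.
ETV6 intron, chr12:11954041-11954340: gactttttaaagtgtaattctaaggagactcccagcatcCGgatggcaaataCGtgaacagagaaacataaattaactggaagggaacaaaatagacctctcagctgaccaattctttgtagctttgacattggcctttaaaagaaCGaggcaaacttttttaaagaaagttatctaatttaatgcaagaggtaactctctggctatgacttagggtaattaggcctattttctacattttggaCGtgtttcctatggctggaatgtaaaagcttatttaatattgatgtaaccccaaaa
FLT1 intron, chr13:28982673-28982972: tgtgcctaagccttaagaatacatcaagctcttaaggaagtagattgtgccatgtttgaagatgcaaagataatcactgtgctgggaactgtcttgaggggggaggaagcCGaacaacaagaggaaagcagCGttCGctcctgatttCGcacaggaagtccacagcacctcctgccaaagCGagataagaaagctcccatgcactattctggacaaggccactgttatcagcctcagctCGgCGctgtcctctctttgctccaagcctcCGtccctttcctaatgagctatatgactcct
FLI1 intron, chr11:128590201-128590500: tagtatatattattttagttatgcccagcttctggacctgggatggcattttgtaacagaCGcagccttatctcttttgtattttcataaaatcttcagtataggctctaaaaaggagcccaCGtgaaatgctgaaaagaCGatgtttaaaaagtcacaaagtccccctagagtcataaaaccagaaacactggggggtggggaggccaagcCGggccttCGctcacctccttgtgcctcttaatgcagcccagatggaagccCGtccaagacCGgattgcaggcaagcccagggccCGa
PPHLN1 intron, chr12:42820605-42820904: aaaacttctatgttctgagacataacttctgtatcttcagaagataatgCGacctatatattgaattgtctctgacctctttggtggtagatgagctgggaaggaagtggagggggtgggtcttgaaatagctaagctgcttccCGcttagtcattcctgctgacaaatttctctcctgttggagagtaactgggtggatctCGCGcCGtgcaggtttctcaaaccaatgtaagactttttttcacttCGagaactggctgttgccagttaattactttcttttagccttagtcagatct
STIM2-flanking, chr4:26814006-26814305: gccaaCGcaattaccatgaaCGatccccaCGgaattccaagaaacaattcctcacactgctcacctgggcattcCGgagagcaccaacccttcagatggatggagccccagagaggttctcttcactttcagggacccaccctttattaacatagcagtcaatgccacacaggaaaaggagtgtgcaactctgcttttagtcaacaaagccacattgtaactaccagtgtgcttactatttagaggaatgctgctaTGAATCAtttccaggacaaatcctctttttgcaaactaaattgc
PRKCB intron, chr16:23962188-23962487: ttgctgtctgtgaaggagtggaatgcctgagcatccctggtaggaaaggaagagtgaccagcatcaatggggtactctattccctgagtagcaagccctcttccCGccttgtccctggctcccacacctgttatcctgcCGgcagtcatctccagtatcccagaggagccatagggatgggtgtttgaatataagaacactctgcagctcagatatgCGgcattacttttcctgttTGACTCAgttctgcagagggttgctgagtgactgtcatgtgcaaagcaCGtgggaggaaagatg
CLSTN2 intron, chr3:140033070-140033369: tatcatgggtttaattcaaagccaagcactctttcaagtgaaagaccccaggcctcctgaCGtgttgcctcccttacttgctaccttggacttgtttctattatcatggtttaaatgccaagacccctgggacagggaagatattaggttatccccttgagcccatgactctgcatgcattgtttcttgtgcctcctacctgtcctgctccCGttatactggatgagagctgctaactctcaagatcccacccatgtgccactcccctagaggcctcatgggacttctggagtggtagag
EBF1 intron, chr5:158183631-158183930: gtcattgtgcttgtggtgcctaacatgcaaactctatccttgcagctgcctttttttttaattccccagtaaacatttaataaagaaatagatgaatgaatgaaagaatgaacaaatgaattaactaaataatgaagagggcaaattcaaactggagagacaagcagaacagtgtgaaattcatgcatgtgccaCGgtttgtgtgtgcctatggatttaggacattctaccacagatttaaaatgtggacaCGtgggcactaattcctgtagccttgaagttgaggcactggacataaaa

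The CLSTN2 and EBF1 sequences hold 2 CpG dinucleotides each, whereas the FLT1 and FLI1 sequences hold 8 each. AP-1 letters begin at base 257 of the STIM2-flanking sequence, as TGAATCA, and at base 237 of the PRKCB sequence, as TGACTCA. Of these only the PRKCB match has C or G in the middle.

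The tables listed 28217448 CpG dinucleotides per line, with a total of 902802339 calls for OCI-AML3 and 894828667 for AML5. Autosomal CpG dinucleotides had a median of 28 reads in OCI-AML3 and 31 in AML5, and their mean level was 68.0% and 75.5%, respectively. Members were read slightly less deeply than bins in general, with medians of 28 against 29.3 reads per CpG in OCI-AML3 and 31.5 against 34.1 in AML5.

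The median member had a level of 13.7% in AML5 (interquartile range 9.39 to 17.2%) and 81.9% in OCI-AML3 (75.2 to 88.6%). The difference between the lines ran from 50.2 to 98.2 percentage points with a median of 69.3. Complete absence of methylation was uncommon, as 21 members had 0 methylated calls in AML5 and 157 had a level under 5%. Every CpG of the bin was below 20% in AML5 in 418 members, or 30.9%, and above 70% in OCI-AML3 in 537, or 39.7%. Both held in 178 members, or 13.2%.

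Wilson 95% intervals on the pooled calls of a bin had a median width of 12.1 points in AML5 and 14.1 points in OCI-AML3. They cover counting error only, and calls from 1 read were treated as independent. In 343 members, or 25.4%, the interval lay wholly below 20% in AML5 and wholly above 70% in OCI-AML3. For the other members the interval was not wholly inside the threshold in at least 1 line. Counting error is 1 reason, and another is that pooled calls give deeply read CpG dinucleotides more weight than the bin level does. When the level itself was taken from pooled calls, 1152 of the members, or 85.1%, stayed inside both thresholds. Nearest to the AML5 threshold, members at 19.996% and 19.978% were kept, and bins at 20% were left out. Nearest to the OCI-AML3 threshold, members at 70.031% and 70.035% were kept, and bins at 70% were left out.

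Members were poorer in CpG than the bins they came from. Bins with 3 passing CpG dinucleotides made up 62.8% of members and 29.6% of all bins. The share of bins that were members fell from 0.203% at 3 CpG dinucleotides to 0.0928% at 4, 0.0506% at 5 and 0.0132% at 9. The rule averages over the CpG dinucleotides of a bin, so this fall is not independent of it. How much of the fall comes from averaging was not tested. Their median GC content was 41.0%, against 43.0% for all bins. They lay further from genes, with a median of 33.8 kb to the nearest TSS against 19.4 kb, and 441 of them, or 32.6%, were inside a protein-coding gene against 45.1% of all bins. An exon of a protein-coding gene was touched by 15 members, or 1.1%, against 4.1% of all bins. Several of these traits were shared in part by the other classes. Bins with 3 passing CpG dinucleotides made up 50.0% of the opposite pattern and 54.6% of bins low in both lines. Median GC content in these classes was 41.0% and 42.4%, and the median TSS distance was 23.5 and 27.3 kb. Inside a protein-coding gene lay 45.0% and 33.9% of them, respectively.

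**Figure D1:**
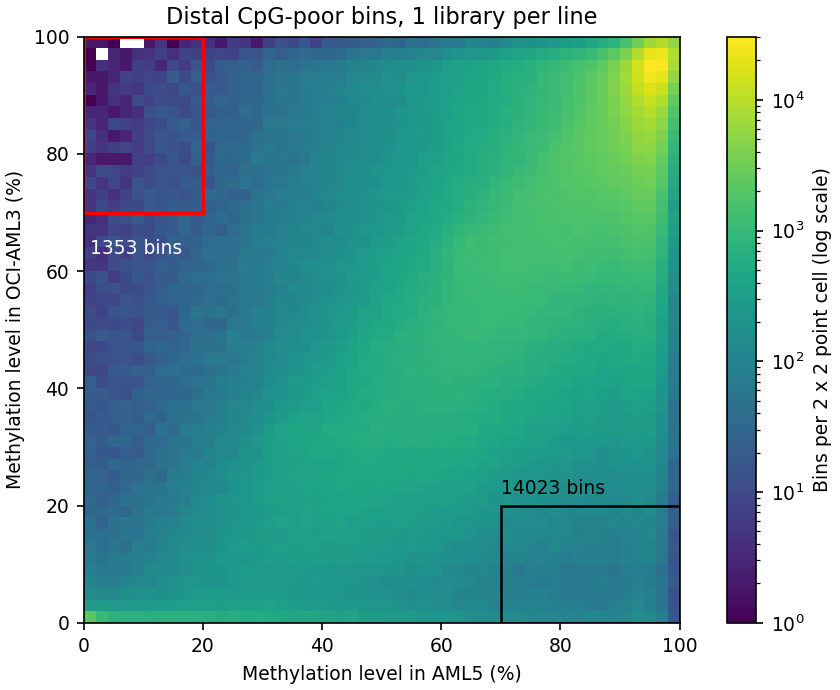
Methylation level of all 1411316 distal CpG-poor bins in AML5 (horizontal axis, percent) and OCI-AML3 (vertical axis, percent), with the number of bins per cell on a log color scale and 1 library per line. The red box holds the 1353 members and the black box the 14023 bins of the opposite pattern.

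The surroundings of the members fell into 2 kinds. The AML5 level of the CpG dinucleotides lying 5 to 20 kb from the bin centre, on both sides, was between 50% and 65% for most members, dropped to a low count of 18 members between 75% and 80%, and rose again to 68 members between 90% and 95%. A level of 75%, chosen after this distribution was seen, split the members into 1193 in partly methylated AML5 surroundings and 160 in methylated AML5 surroundings. In partly methylated surroundings 0.18% of the 662919 bins were members, and in methylated surroundings 0.0214% of the 748367 bins were members. A further 30 bins had no CpG in their surroundings that passed the read minimum. Surrounding levels were not used by the rule, but they come from the same 2 libraries.

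**Figure D2:**
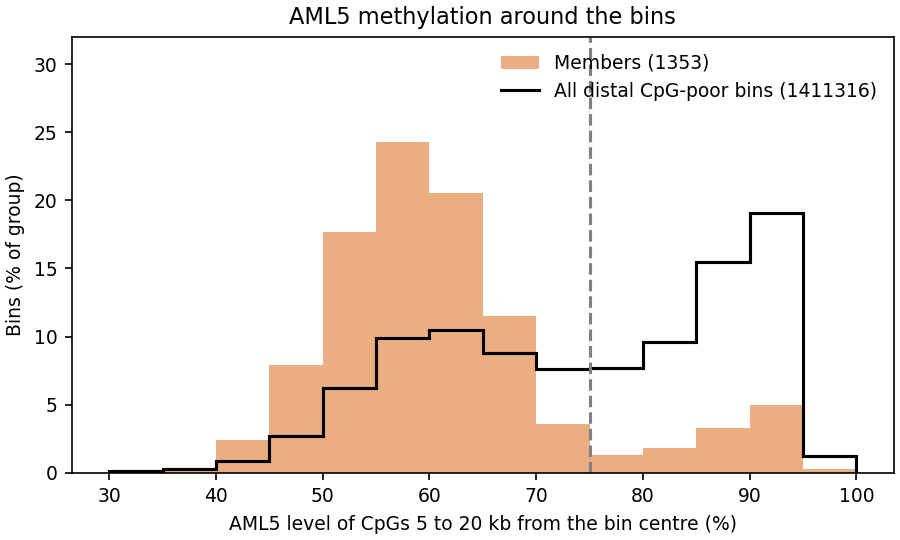
Histogram of the AML5 level of CpG dinucleotides 5 to 20 kb from the bin centre (horizontal axis, percent), as a percentage of the 1353 members (orange) and of all distal CpG-poor bins (black line). Most members sit between 50% and 65%, where all bins have a smaller peak, and the dashed line at 75% separates the 1193 members in partly methylated surroundings from the 160 in methylated surroundings.

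The 1193 members were split off by the AML5 level of their surroundings, which had a median of 58.4%. The OCI-AML3 level there was not used for the split and had a median of 81.7% (interquartile range 76.0 to 85.6%, lowest 25.4%), and AML5 was the lower line around 1123 of them, or 94.1%. The gap extended far, with medians of 59.1% and 80.4% at 20 to 100 kb. All bins in partly methylated AML5 surroundings had the reverse order, with a median of 61.5% in AML5 and 52.8% in OCI-AML3, and AML5 was lower around 22% of them. The members were chosen as low in AML5 and high in OCI-AML3, so the order of the lines around them is not independent of the rule. Bins of the opposite pattern had the mirror order at 5 to 20 kb, with medians of 82.2% in AML5 and 50.2% in OCI-AML3. AML5 was lower around 4.6% of those bins. The mean AML5 level was 13.3% within the bin, 53.6% and 55.5% in the adjoining windows of 500 bp, and 57.8% in the window 10 kb before the centre.

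The 160 members in methylated surroundings had another shape. Surrounding levels had a median of 89.5% in AML5 and 85.0% in OCI-AML3, and AML5 was the lower line around 17 of them, or 10.6%. For all bins in such surroundings the medians were 88.3% and 81.0%. Methylation in AML5 had a median of 65.0% at 250 to 750 bp from the centre and 88.2% at 750 to 1750 bp, against 85.6% and 86.9% in OCI-AML3. The dip was thus about as wide as the bin, and the run of consecutive AML5 CpG dinucleotides under 50% had a median length of 396.5 bp. This compares with 701.0 bp for members in partly methylated surroundings. Counted in CpG dinucleotides the order was reversed, with a median of 6 in methylated and 5 in partly methylated surroundings. The longest run was 7496 bp among the 160, at a member whose nearest protein-coding TSS was that of LMLN, and 11080 bp among the others.

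**Figure D3:**
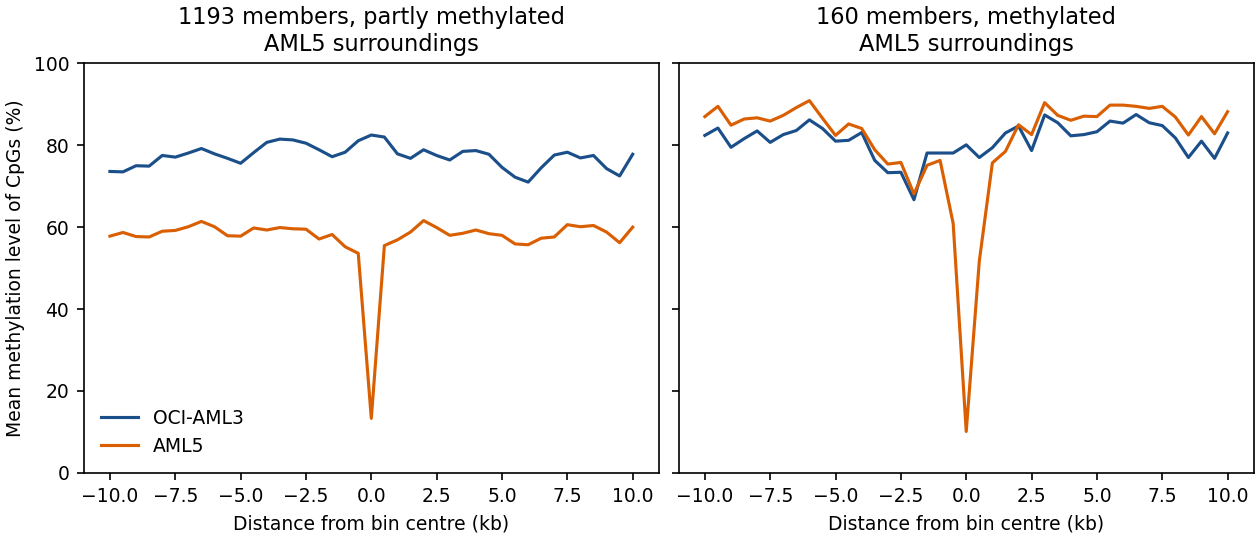
Mean methylation level (vertical axis, percent) of CpG dinucleotides in windows of 500 bp by distance from the bin centre (horizontal axis, kb), for the 1193 members in partly methylated and the 160 in methylated AML5 surroundings, in OCI-AML3 (blue) and AML5 (orange). In the first panel AML5 lies below OCI-AML3 at every distance shown and drops to 13.3% in the bin, and in the second both lines are high on either side and AML5 drops to 10.1% in the bin. The dip at the centre was fixed by the choice of bins.

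The AML5 level that chose the bins had a median of 10.3% in the 160 members and 14.0% in the other 1193, given as a description. The minimum of 3 passing CpG dinucleotides was found in 40% of the 160 members and in 65.9% of the others, against 28.1% and 31.3% of all bins in the same surroundings. The median distance to the nearest TSS was 18.5 kb in the 160 members, close to the 18.4 kb of all bins in methylated surroundings, and 37.9 kb in the others, against 21.2 kb of all bins in partly methylated surroundings. Median GC content was 44.1% against 43.2% in methylated surroundings, and 40.6% against 42.8% in partly methylated ones. In all, 91 of the 160, or 56.9%, lay inside a protein-coding gene, against 52.1% of all bins in methylated surroundings and 29.3% of the other members.

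The largest difference among members with at least 5 passing CpG dinucleotides was in ETV6, which encodes a transcriptional repressor of the ETS family needed for blood stem cells and often rearranged in leukemia. The member chr12:11954001-11954500 lies in intron 2, 48.6 kb from the nearest protein-coding TSS. In AML5 0 of 83 calls were methylated (Wilson interval 0.0 to 4.4%), where 3 calls would be a level of 3.61%. In OCI-AML3 99 of 106 calls were methylated, with an interval of 87.0 to 96.8%. A second member, 1 kb before it, had 1 methylated call of 66 in AML5 and 151 of 166 in OCI-AML3. The AML5 run under 50% around them covered 30 CpG dinucleotides and 5120 bp. Between 1 and 3 kb before the centre both lines had a median of 0.0% over 7 CpG dinucleotides, and between 1 and 3 kb after it both were methylated, so in OCI-AML3 the unmethylated stretch was shorter rather than absent.

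FLT1, which encodes the VEGF receptor VEGFR1, held the member chr13:28982501-28983000 in intron 10. All 8 of its CpG dinucleotides were between 0.0% and 6.1% in AML5 and between 68.4% and 95.8% in OCI-AML3. Pooled calls were 3 methylated of 238 in AML5 and 233 of 266 in OCI-AML3. FLI1, an ETS factor of the megakaryocyte and endothelial lineages, held chr11:128590001-128590500 in intron 1, with 16 methylated calls of 199 in AML5 and 121 of 129 in OCI-AML3. One CpG of that bin was at 70.6% in AML5, and its AML5 surroundings, at 74.7%, fell just under the 75% line. PPHLN1, which encodes periphilin, held chr12:42820501-42821000 in intron 9, with 1 methylated call of 240 in AML5 and 199 of 239 in OCI-AML3, in the most methylated surroundings of the named members, at 95.4% in AML5.

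HTT, the huntingtin gene, held chr4:3081501-3082000 in intron 1, 5.1 kb from the TSS and so near the limit set by the rule. Its 9 CpG dinucleotides gave 3 methylated calls of 448 in AML5 and 541 of 580 in OCI-AML3. The OCI-AML3 depth of the HTT bin was 64.4 reads per CpG, against a median of 29.3 for all bins. GALM, the galactose mutarotase gene, held chr2:38949501-38950000 in intron 4, with 4 methylated calls of 124 in AML5 and 145 of 156 in OCI-AML3. A member 23.4 kb from the TSS of STOM, the stomatin gene, had 27 methylated calls of 230 in AML5 and 166 of 170 in OCI-AML3. These HTT, GALM and STOM bins had every passing CpG at 20% or lower in AML5 and at 80% or higher in OCI-AML3.

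The other members among the largest 10 differences were, like those in FLI1 and HTT, in partly methylated surroundings. PTPRN2, which encodes a phosphatase-like protein of secretory granules, had 24 methylated calls of 238 in AML5 and 671 of 705 in OCI-AML3 at chr7:157473001-157473500. That bin was unusually deep in OCI-AML3, at 100.7 reads per CpG against a median of 29.3 for all bins. In AML5 it had 34.0. A pair of intergenic bins lay on chromosome 20 before BMP2, the bone morphogenetic protein 2 gene, at 192.8 and 282.8 kb from its TSS. Their AML5 levels were 7.2% and 11.7%, and their OCI-AML3 levels were 90.9% and 94.6%.

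Single CpG values around 4 members in methylated surroundings, picked for drawing after their values were seen, show where the lines part. In RNF130, which encodes a RING-finger ubiquitin ligase, 3 adjoining members covered chr5:179433501-179435000 in intron 3. Levels there were 3.4, 0.7 and 0.8% in AML5 and 93.3, 83.2 and 78.8% in OCI-AML3. The AML5 run under 50% spanned 16 CpG dinucleotides and 1534 bp. Between 1 and 3 kb on either side of the last bin the medians were 95.7% and 96.4% in AML5 and 95.9% and 95% in OCI-AML3. RUNX1, a core transcription factor of blood stem cells, held chr21:36771001-36771500, outside the canonical transcript of the gene. The nearest protein-coding TSS, that of RUNX1, was 349.4 kb from this bin, and another annotated TSS lay at 66127 bp. The bin had 4 methylated calls of 131 in AML5 and 108 of 132 in OCI-AML3, and it carried the AP-1 letters.

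**Figure D4:**
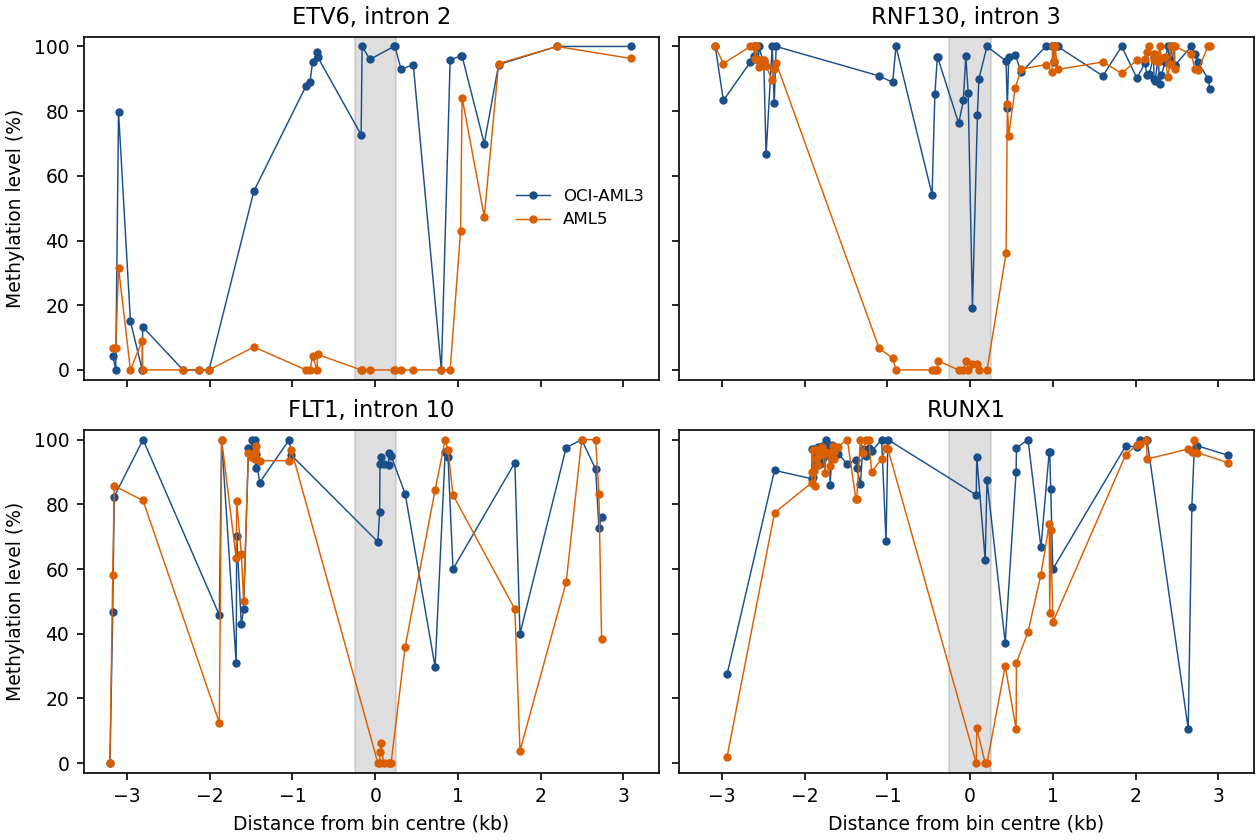
Methylation level of single CpG dinucleotides (vertical axis, percent) by distance from the bin centre (horizontal axis, kb) at members in ETV6, RNF130, FLT1 and RUNX1, in OCI-AML3 (blue) and AML5 (orange), with the bin shaded. AML5 points inside the 4 bins lie between 0.0% and 10.8%, and in ETV6 both lines are also at or near 0 on the left.

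Outside the set with 5 or more CpG dinucleotides, the largest difference in methylated surroundings, 96.6 points, was in an intergenic bin at chr4:26814001-26814500, 44.8 kb from the TSS of STIM2, a calcium sensor of the endoplasmic reticulum. All 139 calls were unmethylated in AML5, where 3 calls would be 2.16%, and 83 of 86 were methylated in OCI-AML3. PRKCB, the protein kinase C beta gene, had 3 methylated calls of 78 in AML5 and 58 of 63 in OCI-AML3 at chr16:23962001-23962500, in intron 2. These were named after their values were seen. Both sequences printed above for these bins hold AP-1 letters. The ETV6, FLT1, GALM, STOM and PPHLN1 bins among the largest differences, also in methylated surroundings, do not hold them.

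AP-1 letters were present in 50 of the 160 members in methylated surroundings, or 31.2%. In all bins in such surroundings the share was 15.1%, and in members in partly methylated surroundings it was 16.7%. Bins low in both lines and in methylated AML5 surroundings had 30.1%, and bins of the opposite pattern in methylated OCI-AML3 surroundings had 20.5%. By GC content, the letters were in 14 of 36 members below 40% GC, or 38.9% against 15.2% of all bins in methylated surroundings, and in 29 of 90 at 40 to 50% GC, or 32.2% against 15.6%. At higher GC they were in 7 of 34, or 20.6% against 12.9%, which rests on few members. These shares count any middle base, and matches with C or G there were not counted apart. Letters in a sequence are a description and not evidence that the factor binds.

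Of the other 15 motifs searched on both strands, the GATA-family letters AGATAAG were in 13.1% of the 160 members against 6.5% of all bins in methylated surroundings. RUNX (TGTGGTT) was in 14.4% against 9.4%, the CTCF core (AGGGGGC) in 8.1% against 4.7%, and the E-box of TAL1 and E proteins (CAGCTG) in 25.6% against 18.9%. PU.1 (GAGGAAGT), the ETS factor of myeloid cells, was in 4.4% against 2.6%, which is 7 members. Other classes had similar or higher shares of several of these. RUNX letters were in 16.9% of bins of the opposite pattern in methylated OCI-AML3 surroundings and 17.7% of bins low in both lines in methylated AML5 surroundings, and PU.1 letters in 4.4% and 10.7%. The CTCF core was in 3.8% and 8.0%, the E-box in 19.9% and 26.7%, and GATA-family letters in 6.0% and 7.5%. C/EBP (TTGCNNAA), the family of granulocyte factors, was in 21.2% against 23.2%, while the opposite pattern in methylated OCI-AML3 surroundings reached 38.6%. IRF letters (GAAANNGAA) were in 23.1% against 17.3%, MEIS letters (TGACAGNT) in 10.0% against 7.3%, MYB letters (CAACTGNC) in 6.2% against 4.5%, and STAT letters (TTCNNNGAA) in 16.2% against 14.9%. The remaining shares were 25.6% against 33.9% for the nuclear receptor site (AGGTCA), 5.0% against 5.5% for KLF (GGGTGTGG), 2.5% against 3.4% for HOX with PBX (TGATTTAT), 1.2% against 1.4% for NF-kB (GGGANTTCC) and 0.6% against 0.3% for ETS (CCGGAAGT).

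**Figure D5:**
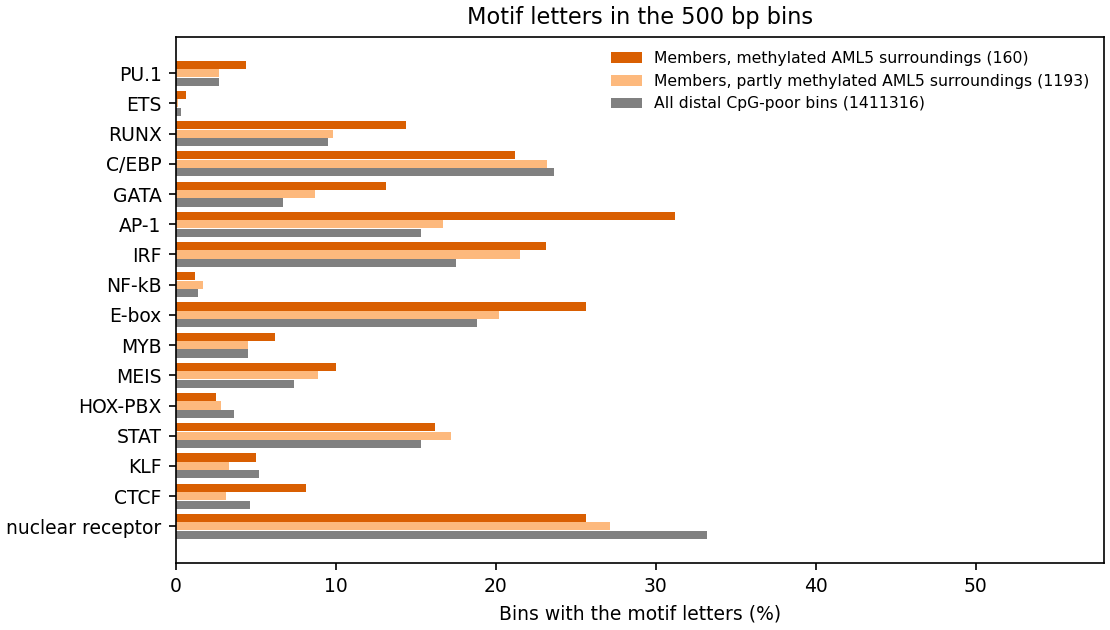
Share of 500 bp bins that hold the letters of each of 16 motifs on either strand (horizontal axis, percent), for the 160 members in methylated AML5 surroundings, the 1193 members in partly methylated surroundings and all distal CpG-poor bins. AP-1 has the widest gap, at 31.2% of the 160 members against 15.3% of all bins.

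Members were unevenly spread over the genome. Chromosome 21 had 38.1 members per 10000 bins, chromosome 20 had 22.7 and chromosome 5 had 14.2, whereas chromosome 19 had 1.4. Bins of the opposite pattern did not share this order, at 64.2, 40.6, 78.3 and 80.6 per 10000 bins on these chromosomes. The window of 5 Mb with most members was chromosome 20 from 5000001 to 10000000, with 50 members among 2796 bins, in which the mean level of all bins was 70.6% in AML5 and 78.7% in OCI-AML3. The 10 windows with most members held 259 members, or 19.1%, and 1.9% of the bins. Even so, 306 of 567 windows had at least 1 member. Only 40 members, or 3.0%, adjoined another member. Joining members within 10 kb gave 1189 loci, of which 1058 held a single bin.

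The loci with most member bins were all in partly methylated surroundings. PTPRN2 had 5 bins in 8.0 kb, with AML5 levels of 1.0 to 18.1% and OCI-AML3 levels of 70.9 to 95.2%. OCI-AML3 depth in these bins ran from 35.8 to 100.7 reads per CpG. EBF1, the gene of a B-cell transcription factor, had 4 bins in 16.0 kb of intron 10, at 7.8 to 19.0% in AML5 and 82.8 to 93.3% in OCI-AML3. CLSTN2, which encodes a synaptic cadherin-like protein, had 4 bins in 17.0 kb of intron 2, at 10.5 to 14.2% and 79.2 to 88.4%. Intergenic loci of 4 bins had FERMT1, MARCHF11 or HAO1 as the gene with the nearest protein-coding TSS. Levels at the FERMT1 locus were 2.6 to 15.2% in AML5 and 72.9 to 93.0% in OCI-AML3. At the MARCHF11 locus they were 8.4 to 16.4% and 75.1 to 93.6%, and at the HAO1 locus 13.4 to 19.1% and 75.5 to 97.2%. With those in EBF1 and CLSTN2 these loci made up the 5 loci of 4 bins, and none but the PTPRN2 locus held more.

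The gene bodies that held members differed between the kinds of surroundings. For 126 hosts in partly methylated surroundings the median body level was 63.2% in AML5 and 74.2% in OCI-AML3, and for 88 hosts in methylated surroundings it was 82.6% and 79.7%, against 76.7% and 69.7% for all protein-coding genes. Of 213 protein-coding genes with a member inside, 142 had 1 and 23 had 5 or more. CLSTN2 held 26 members among its 423 bins, and its 642.2 kb body had a mean level of 51.3% in AML5 and 81.6% in OCI-AML3. SGCZ, the zeta-sarcoglycan gene, held 16, EYS, a photoreceptor gene, and CSMD1, which encodes a large protein with CUB and Sushi domains, held 12 each, MACROD2 held 9, ADGRB3 held 8 and EBF1 held 7. The gene body was lower in AML5 in 22 of the 23 genes with 5 or more members, the exception being PTPRN2, with 74.1% in AML5 and 70.2% in OCI-AML3. Host genes were found through bins chosen as low in AML5 and high in OCI-AML3. The order of the lines in their bodies is therefore not independent of the rule. The share of all protein-coding genes with a body lower in AML5 is not given here. RNF130 was the 1 gene with 3 or more members in which all were in methylated surroundings.

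At the promoters of these genes the order of the lines was often the other way round. CLSTN2 had 0.5% in OCI-AML3 and 32.2% in AML5 within 1000 bp of its 5′ end, EBF1 had 0.5% and 38.0%, KCND2, a potassium channel gene, had 1.7% and 28.4%, and SGCZ had 11.3% and 40.1%. Other promoters were lower in AML5, as in MACROD2, with 70.9% in OCI-AML3 and 7.2% in AML5. FBXL7 had 92.5% in OCI-AML3 and 66.5% in AML5, SNTG1 had 81.4% and 58.5%, and PTPRN2 had 59.4% and 31.8%. Of 116 hosts of members in partly methylated surroundings with at least 10 promoter CpG dinucleotides, 32, or 27.6%, were more than 20 points lower in OCI-AML3, against 8.9% of all protein-coding genes. A further 13, or 11.2%, were more than 20 points lower in AML5, against 2.6%. Among 85 hosts of members in methylated surroundings, 3 promoters were lower in each line by that margin, or 3.5%.

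Genes were also grouped by 7 lists, a member counting for a list when it lay inside one of its genes or had its nearest protein-coding TSS there. Synaptic and neuronal adhesion genes took 59 members, or 4.36%, against 2.72% of all bins. All 59 were in partly methylated surroundings, where the list had 4.95% of members and 4.94% of all bins. CTNNA2, the neuronal alpha-catenin gene, had 3 members, at 8.3 to 15.7% in AML5 and 75.5 to 94.0% in OCI-AML3. In CDH13, the T-cadherin gene, and its flank the 9 members had AML5 levels of 7.5 to 16.9% and OCI-AML3 levels of 71.1 to 92.1%.

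Stem, erythroid and megakaryocyte transcription factors took 12 members, or 0.89%, against 0.63% of all bins. Of these 4 were in methylated surroundings, namely the ETV6 pair and a pair in RUNX1. The second RUNX1 member had 4 methylated calls of 94 in AML5 and 69 of 96 in OCI-AML3. It also lay outside the canonical transcript, and its nearest protein-coding TSS was that of FKSG68, at 386.2 kb. MEIS1 encodes a homeobox cofactor of HOX proteins in stem cells and leukemia. It had the nearest protein-coding TSS to 3 intergenic members on chromosome 2, at 415.2, 425.7 and 453.7 kb. Other annotated TSSs lay closer to these members, at 24854, 14354 and 9568 bp. The levels of the 3 members were 10.0, 1.3 and 5.8% in AML5 and 90.0, 87.5 and 77.1% in OCI-AML3, with 3 CpG dinucleotides each.

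Cytokine, receptor and signalling genes took 5 members, or 0.37%, against 0.35% of all bins, and 3 of them were in methylated surroundings. TGFBR2, a receptor of transforming growth factor beta, had 18 methylated calls of 216 in AML5 and 142 of 153 in OCI-AML3 in intron 3. STAT3, a transcription factor downstream of cytokine receptors, had 0 of 148 in AML5, where 3 calls would be 2.03%, and 95 of 125 in OCI-AML3 in intron 4, 5.5 kb from a TSS. The PRKCB member was the third, and the other pair was at IL10RA, the interleukin-10 receptor gene, with AML5 levels of 13.2 and 17.2%.

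Lymphoid genes took 8 members, or 0.59%, against 0.47% of all bins, and each of the 8 was counted through EBF1. Myeloid transcription factors took 3 members, or 0.22%, against 0.52%, of which 1 lay 6.7 kb from KLF4. Monocyte and granulocyte genes took 1 member, or 0.07%, against 0.44%, in an exon of ARHGAP26, with 22 methylated calls of 160 in AML5 and 100 of 111 in OCI-AML3. Within the same surroundings the gaps for these myeloid and monocyte lists were smaller. In partly methylated surroundings they had 0.17% and 0.0% of members, against 0.29% and 0.19% of all bins. In methylated surroundings each had 0.62% of members, against 0.73% and 0.65%. These shares rest on very few members. DNA methylation writers and erasers took 0 of the 1353 members, and their share of all bins was 0.04%, or 627 bins. At so small a share a count of 0 says little.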

How the data were processed

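Genomic DNA of both lines was bisulfite-treated and sequenced as paired-end libraries with unmethylated lambda DNA added. For each CpG dinucleotide the authors deposited 2 counts, of methylated and of unmethylated calls, made with Bismark and Bowtie 0.12.8 on hg19, with both strands added. Removal of duplicate reads is not given in the sources used here, and repeated reads would narrow the true precision. Which column held methylated calls was read from mitochondrial DNA, where 99.83% and 99.9% of calls were in the unmethylated column. Listed positions were the G of a reference CpG, and each CpG was placed by its C. Only CpG dinucleotides with 10 reads in both lines entered a level or the count of 3 to 9. Levels were rounded before comparison so that exactly 20% or 70% was left out. A total of 13 members had more than 9 CpG dinucleotides listed.

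The genome and the gene models were GRCh37 and GENCODE lifted to it. No repeat annotation was used here, and no expression data were used. With 1 library per line there was no test between lines. Calculations used Python 3.11.15, numpy 2.4.6, scipy 1.17.1, pandas 2.3.3 and matplotlib 3.10.9, and the binning was tested on simulated data. The median depths were 28 and 31 reads per CpG, and 3 calls were taken as the smallest number detected.

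Members and gene lists were chosen with earlier results of these data known. Genes named by rule were those of the 10 largest differences among members with 5 or more CpG dinucleotides, the 5 loci with most member bins (ties by summed difference, which left out 1 tied locus, named here too), the list members with 4 or more (up to 15, not all printed here) and the bins nearest each threshold. The level of 75% for the surroundings, other named members, the list members with 3 CpG dinucleotides and the host genes were chosen after the values were seen. Alternatives changed the read minimum, grid, level, thresholds, TSS distance and set, CpG number, bin size and depth limit.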

Additional observations from a re-analysis of the deposited data

How the results depend on the processing

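The count of 1353 members changed most with the thresholds, to 202 at 10% and 80% and 5348 at 30% and 60%. It was 815 with 20 reads per CpG and 220 with 5 to 9 CpG dinucleotides. The opposite pattern went to 9122 bins with 20 reads, 3782 and 45455 with the stricter and looser thresholds, 3774 with 5 to 9 CpG dinucleotides and 9197 with bins of 1000 bp. Under every alternative it outnumbered the members, by 8.5 to 18.7 times. Members in methylated surroundings, 160 in the report, numbered 34 and 530 with those thresholds, 67 with 5 to 9 CpG dinucleotides and 42 with bins of 1000 bp. Their share with AP-1 letters ranged from 26.0% with the grid shifted by 250 bp to 42.9% in bins of 1000 bp. Longer bins hold more letters, and the share in all members went from 18.4% to 33.2% in bins of 1000 bp. The share in all bins was not computed under the alternatives, so the range does not show how the excess changed. Splitting the surroundings at 70% or 80%, or measuring them at 2 to 5 kb or 20 to 100 kb, which was added after the data were seen, gave 142 to 209 such members. With 20 reads per CpG 619 of the 1353 members were kept. No paired analysis was possible because each line is 1 library. At these depths 343 of the 1353 members had both counting intervals inside the thresholds.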
